A study of Homo sapiens with 12 samples.

Results

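Extracellular proteases of the matrix metalloproteinase and ADAM families, the plasminogen activators, and the inhibitors and membrane partners that set their activity were followed in MDA-MB-231 cells treated with CAR, JQ1, both agents or DMSO. The genes were chosen by symbol: every gene in the count tables named MMP, ADAM, ADAMTS or TIMP with a number, plus PLAU, PLAUR, PLAT, ST14, BSG and RECK. This gave 64 genes of the 16384 listed, of which 42 had enough counts to be tested among 12645 genes tested in all.

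Matrix metalloproteinases (MMPs) and the related ADAMs and ADAMTSs are zinc endopeptidases that are made as inactive precursors. Secreted MMPs and the membrane-type MMPs degrade collagen and other matrix proteins, ADAMs cut the outer parts of membrane proteins such as growth factor precursors, and ADAMTSs act mostly on proteoglycans and procollagens. The 4 TIMPs and the membrane protein RECK inhibit them. The plasminogen activators PLAU (urokinase, which binds the cell surface receptor PLAUR) and PLAT (tissue plasminogen activator) convert plasminogen to plasmin, which degrades fibrin and can activate some MMP precursors, and in breast cancer urokinase is known as a marker of invasive disease.

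MDA-MB-231 is an established line from a triple-negative breast cancer, labelled here as wild type (WT), and all 4 groups are cultures of this 1 line. The Combination group received 10 µmol/L CAR with 25 µmol/L JQ-1, the JQ1 group 25 µmol/L JQ-1, the CAR group 10 µmol/L CAR, and the control group DMSO. JQ1 is an inhibitor of the BET bromodomain proteins, which bind acetylated histones, and the series title names CAR as cardamonin, a plant chalcone. Each group had 3 libraries of stranded poly(A)-selected RNA sequencing, and the time of treatment is not given in the labels. The labels do not say that replicates were separate cultures; the p-values below therefore reflect sample-to-sample spread that may be purely technical.

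Libraries held between 17449715 and 19754456 counts, and a floor of 3 counts was worth 0.152 to 0.172 counts per 1000000 library counts (CPM). VIM and CD44, high in this line, were at 489.9 to 2365 and 563 to 819 CPM, ESR1, PGR and CDH1 had 13 counts or fewer in every library, ERBB2 was at 99 to 151 CPM and EPCAM at 2.3 to 17.7 CPM. Of the markers of other cells, PTPRC, LYZ, PDGFRA, DCN, LUM and CDH5 had at most 3 counts. CD14, PECAM1 and VWF had at most 14, 16 and 7 counts. CD68 (88.4 to 208 CPM) and PDGFRB (13.7 to 95.6 CPM) made up most of the leukocyte and fibroblast marker sums. The leukocyte sum was 138 to 154 CPM in Combination, 88.9 to 95 CPM in JQ1, 202 to 208 CPM in CAR and 133 to 144 CPM in DMSO. The line markers summed to 1189 to 1255 CPM in Combination, 1594 to 1626 CPM in JQ1, 3076 to 3118 CPM in CAR and 3122 to 3271 CPM in DMSO. Of the 7 genes in this sum VIM had the widest range, so it does not measure the share of the line in a library. Combination replicate 1 stood apart by 11 liver genes that summed to 165 CPM there, against 2.14 and 2.51 CPM in the other Combination libraries and 1.42 to 3.89 CPM in the other 9 libraries. DMSO replicate 3 differed from its group (chi-square per degree of freedom 10.6 and 12.6, against 1.46 to 2.31 for the other replicate pairs), and its deviations followed gene length with a Spearman rho of -0.638 across genes, against 0.56 and 0.539 in DMSO replicates 1 and 2. Counts of members are therefore also given without each of these libraries.

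CPM values below are counts divided by the library total, whereas log2 fold changes and tests are from edgeR's quasi-likelihood test on counts scaled with TMM factors (0.92 to 1.08, lowest in Combination), with Benjamini-Hochberg adjustment over all genes tested. Genes were called at an adjusted p under 0.05. Exons of ADAM15, ADAM19, TIMP2 and TIMP4 overlap those of DCST1, CYFIP2, CEP295NL and SYN2 by 306, 62, 198 and 170 bases. In bulk RNA, fewer cells with a transcript and less of it per cell cannot be told apart.

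The 22 genes too low to test were MMP2, MMP3, MMP9, MMP10, MMP13, MMP20, MMP21, MMP23B, MMP25, MMP28, ADAM18, ADAM20, ADAM21, ADAM23, ADAM32, ADAM33, ADAMTS2, ADAMTS4, ADAMTS5, ADAMTS8, ADAMTS19 and ADAMTS20. They included both gelatinases: MMP2 had at most 7 counts in any library and 27 in all 12 together, and MMP9 at most 5 and 25 in all. The stromelysin MMP3 reached the highest count among them, 9, and the highest group mean, 0.365 CPM in CAR. In 11 of the 22 no library exceeded 3 counts, so differences between groups were not detectable at this depth. MMP1, MMP3, MMP8, MMP10, MMP13 and MMP20 lie together on chromosome 11 (chr11:102576835-102955734, GRCh38), and only MMP1 and MMP8 of these 6 genes could be tested.

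Lower calls outnumbered higher calls among the 42 tested members in each comparison between 2 groups. Against DMSO, 11 members rose and 27 fell in Combination, where 42.6% and 42.8% of all genes tested rose and fell. In JQ1, 12 members rose and 21 fell, against 41.5% and 42.2% of all genes. In CAR, 5 rose and 22 fell, against 27.3% and 30.1% of all genes. As shares of the members these were 26.2% higher and 64.3% lower in Combination, 28.6% and 50% in JQ1, and 11.9% and 52.4% in CAR. The lower share was thus above its background in all 3 comparisons, least so in JQ1, and the higher share was below it. ADAM28, ADAMTS13 and ADAMTS14 passed the filter on low counts only through DMSO, and could hardly be called against it except as lower. ADAM28 and ADAMTS14 were lower in all 3 comparisons, ADAMTS13 in Combination and CAR. ADAM12 and ADAMTS17 passed only through DMSO and CAR, and both were lower in Combination and JQ1. The share of such genes among all genes tested was not counted. Called in either direction were 90.5%, 78.6% and 64.3% of members in Combination, JQ1 and CAR, against 85.4%, 83.7% and 57.3% of all genes, a smaller difference than that in direction. The median log2 fold change of the members was -0.74 in Combination, -0.20 in JQ1 and -0.37 in CAR, against 0.00, -0.01 and -0.02 over all genes tested. Without DMSO replicate 3 the counts higher and lower were 11 and 24 in Combination, 12 and 22 in JQ1, and 5 and 21 in CAR. Without Combination replicate 1, Combination had 11 higher and 26 lower.

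**Figure D1:**
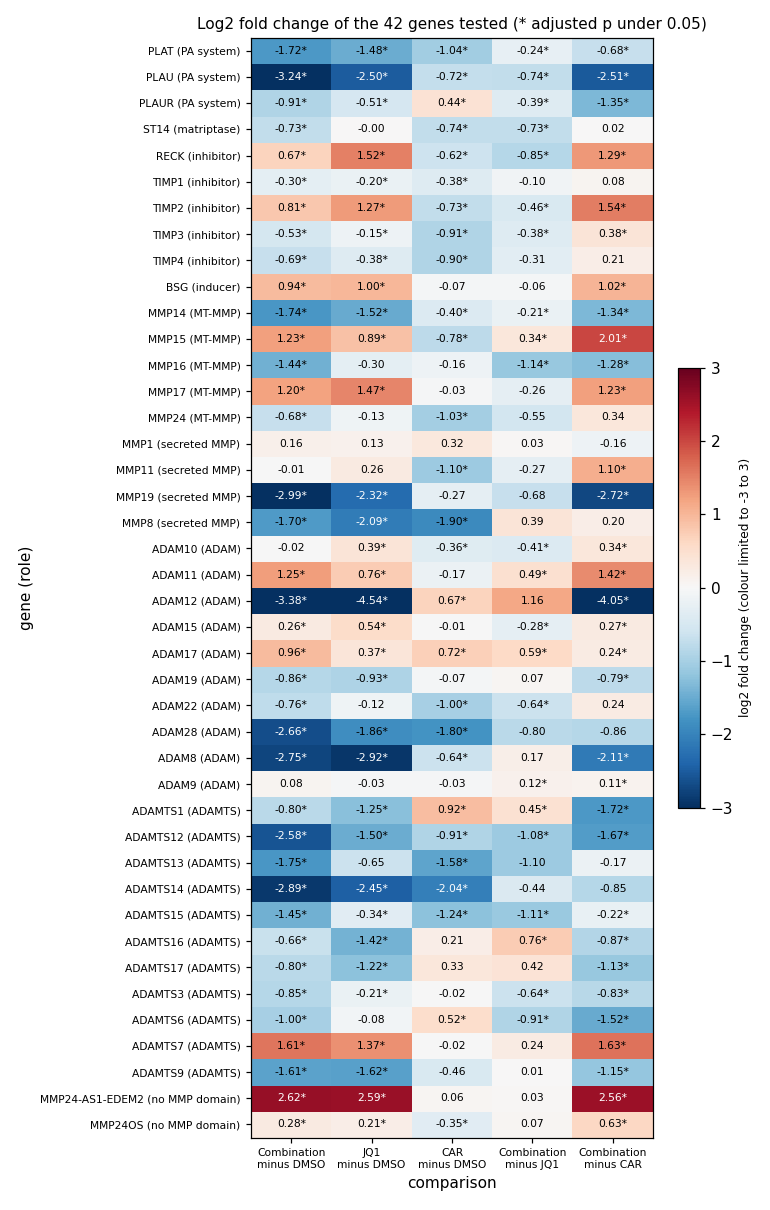
Log2 fold change of the 42 tested members (down the page, grouped by role) in the 5 comparisons between groups (across), with a mark where the adjusted p was under 0.05. PLAU and PLAT were lower in all 5 comparisons, while BSG, TIMP2 and RECK were higher in JQ1 and Combination than in DMSO.

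By role, the 11 tested ADAMTS genes had 10 lower and 1 higher in Combination, 8 lower and 1 higher in JQ1, and 4 lower and 2 higher in CAR, each against DMSO. Of the 8 in JQ1, ADAMTS3 was close to the threshold (log2 -0.21 ± 0.09, edgeR adjusted p = 0.0438). It was not called without DMSO replicate 1 or 2, CAR replicate 2, JQ1 replicate 1 or 2, or Combination replicate 2 (edgeR adjusted p = 0.14, 0.0561, 0.0544, 0.147, 0.194 and 0.0542), nor with DESeq2 (adjusted p = 0.0776). All 5 tested inhibitors fell in CAR, whereas in Combination and in JQ1 there were 2 that rose and 3 that fell. The 10 tested ADAMs divided more evenly, with 3 higher and 5 lower in Combination, 4 and 4 in JQ1, and 2 and 4 in CAR. Beside these counts by role, 42.6% of all genes tested rose and 42.8% fell in Combination. In JQ1 these shares were 41.5% and 42.2%, and in CAR 27.3% and 30.1%. The lower ADAMTS counts include ADAMTS13 and ADAMTS14, which passed the filter only through DMSO, and the roles were not tested as sets.

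PLAU, the urokinase gene, fell in all 3 treated groups and most in Combination. PLAU (chr10:73909177-73917497, plus strand, GRCh38) had 30.9, 32.6 and 36.8 CPM in Combination, 58.7, 60.0 and 59.1 CPM in JQ1, 209, 215 and 209 CPM in CAR, and 362, 358 and 373 CPM in DMSO. The 4 groups did not overlap and ran in that order from lowest to highest. PLAU was 9.43-fold lower in Combination than in DMSO (log2 fold change -3.24 ± 0.05 SE, edgeR adjusted p = 7.35e-23). It was 5.65-fold lower in JQ1 and 1.65-fold lower in CAR, both against DMSO. Addition of CAR to JQ1 lowered it by a further 1.67-fold (Combination minus JQ1, log2 -0.74 ± 0.05). The departure of Combination from the sum of the separate log2 effects was -0.01 ± 0.07, with a 95% interval of -0.15 to 0.12.

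PLAT, on chromosome 8, had 38, 37 and 39.3 CPM in Combination, 48.6, 45.8 and 49.1 CPM in JQ1, 62.2, 70.7 and 68.9 CPM in CAR, and 148, 144 and 144 CPM in DMSO. The order of the groups was the same as for PLAU, again without overlap. PLAT fell 3.3-fold in Combination (log2 -1.72 ± 0.05, edgeR adjusted p = 2e-18), 2.79-fold in JQ1 and 2.06-fold in CAR, each against DMSO. Unlike PLAU, it fell less in Combination than the separate effects add to, by 0.80 ± 0.07 on the log2 scale (edgeR adjusted p = 3.23e-08).

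PLAUR (chr19:43646095-43670547, minus strand, GRCh38), the urokinase receptor, moved in opposite directions in the single treatments. It had 27.9, 28.2 and 28.3 CPM in Combination, 37.1, 39.7 and 41.3 CPM in JQ1, 77.6, 82.8 and 77.3 CPM in CAR, and 60.7, 60.0 and 62.4 CPM in DMSO. CAR was thus the highest group and Combination the lowest, and no groups overlapped. PLAUR rose in CAR (log2 0.44 ± 0.05, edgeR adjusted p = 7.35e-08) and fell in JQ1 (log2 -0.51 ± 0.05, edgeR adjusted p = 3.78e-09), each against DMSO. Combination, with both agents, was lower than JQ1 alone (log2 -0.39 ± 0.06), and the departure from additivity was -0.84 ± 0.07 (edgeR adjusted p = 2.12e-08). The ratio of PLAU to PLAUR, each as CPM per kilobase of exon, was 1.79 ± 0.148 in Combination, 2.28 ± 0.111 in JQ1, 4.02 ± 0.0875 in CAR and 9.02 ± 0.00757 in DMSO (SD, n = 3 each).

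**Figure D2:**
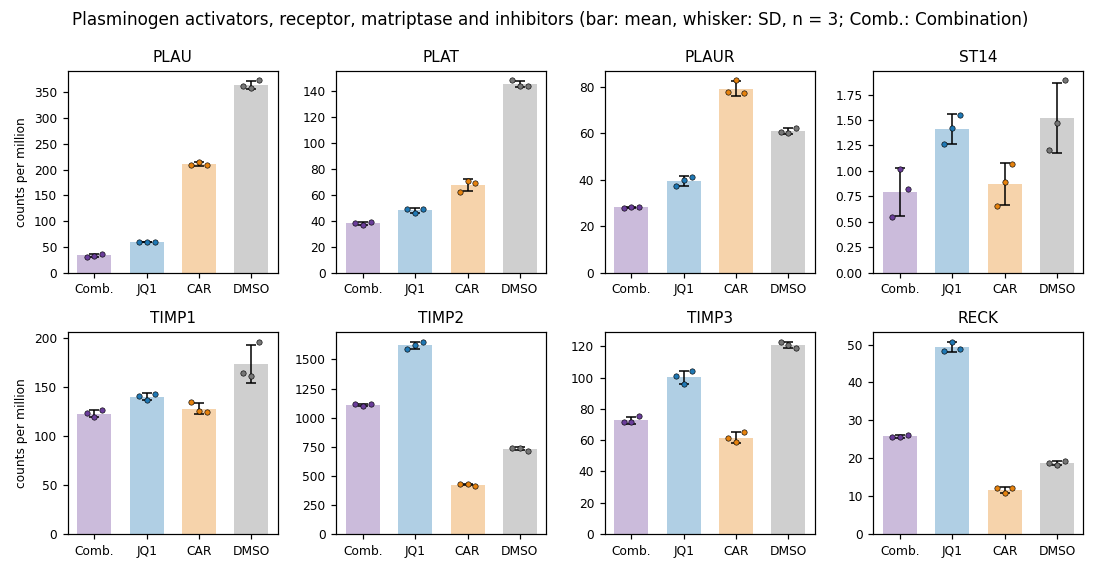
CPM of PLAU, PLAT, PLAUR, ST14, TIMP1, TIMP2, TIMP3 and RECK in each library (points), with the group mean (bar) and SD (whisker, n = 3), for Combination, JQ1, CAR and DMSO. PLAU and PLAT were highest in DMSO, PLAUR in CAR, and TIMP2 and RECK in JQ1.

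ST14 (matriptase), a membrane serine protease that can activate the urokinase precursor, was low, at 10 to 36 counts per library. Its values were 0.548, 1.02 and 0.819 CPM in Combination, 1.26, 1.42 and 1.55 CPM in JQ1, 0.658, 0.892 and 1.07 CPM in CAR, and 1.21, 1.47 and 1.89 CPM in DMSO. The Combination and CAR libraries all lay below the JQ1 and DMSO libraries. ST14 fell in Combination (log2 -0.73 ± 0.27, edgeR adjusted p = 0.0169) and in CAR (log2 -0.74 ± 0.26, edgeR adjusted p = 0.0199), each against DMSO, while JQ1 minus DMSO was -0.00 with a 95% interval of -0.50 to 0.50. Without DMSO replicate 3 neither call held, at edgeR adjusted p = 0.104 and 0.11. The call in Combination was also lost without Combination replicate 1 (edgeR adjusted p = 0.0967), and that in CAR without CAR replicate 1 (edgeR adjusted p = 0.0993).

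A list of protease inhibitors besides the TIMPs and RECK held 18 genes, of which 13 were tested. In Combination 4 rose and 9 fell, as in JQ1, while 4 rose and 5 fell in CAR, each against DMSO. Over all genes tested 42.6% rose and 42.8% fell in Combination, 41.5% and 42.2% in JQ1, and 27.3% and 30.1% in CAR. Median log2 fold change of the 13 was -1.04 in Combination, -1.66 in JQ1 and -0.08 in CAR. Over all genes it was 0.00, -0.01 and -0.02. TFPI, which inhibits the tissue factor pathway of clotting, had one of the largest falls, to 5.89 ± 1.33 CPM in Combination and 8.03 ± 1.23 CPM in JQ1, against 133 ± 3.81 CPM in DMSO (19.6-fold and 15.2-fold lower). SERPINH1, which is a collagen chaperone and not an inhibitor, fell 4.31-fold in Combination and 3.32-fold in JQ1 against DMSO. It is nevertheless part of the list and of its counts and medians. SPINT2, an inhibitor of matriptase and related proteases, averaged 87.1 ± 2.45 CPM in Combination, 131 ± 2.25 CPM in JQ1, 126 ± 4.81 CPM in CAR and 199.9 ± 14.1 CPM in DMSO. It was lower in Combination than in JQ1 (log2 -0.51 ± 0.05) and lower in CAR than in DMSO (log2 -0.61 ± 0.05).

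Of 10 genes listed for plasminogen, its cell surface receptors and urokinase clearance, 9 were tested. In Combination 2 rose and 3 fell, in JQ1 3 rose and 4 fell, and in CAR none rose and 5 fell, each against DMSO. These counts stand beside the same shares of all genes as given for the inhibitor list. ENO1, a glycolytic enzyme that also binds plasminogen, averaged 3052 ± 44.7 CPM in Combination, 2140.4 ± 30.9 CPM in JQ1 and 2723 ± 139 CPM in DMSO. It rose in Combination (log2 0.37 ± 0.04) and fell in JQ1 (log2 -0.23 ± 0.04). HMGB1, a chromatin protein also reported to bind plasminogen, fell 5.76-fold in Combination and 4.59-fold in JQ1. S100A10, which with ANXA2 forms a plasminogen receptor, averaged 429 ± 1.75 CPM in Combination, 549 ± 4.54 CPM in JQ1, 401 ± 7.24 CPM in CAR and 492 ± 51.7 CPM in DMSO. Against DMSO, the group with the widest spread, S100A10 rose slightly in JQ1 (log2 0.28 ± 0.05) and fell slightly in CAR (log2 -0.23 ± 0.05). Plasminogen itself (PLG) was not tested: it had 40 counts in Combination replicate 1, the library with liver transcripts, and 0 in the other 11 libraries.

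Of the membrane-type MMPs, 5 of 6 were tested, and they divided in JQ1 and in Combination. MMP14 (MT1-MMP), a collagenase that also activates the MMP2 precursor, had 108, 109.6 and 112 CPM in Combination, 135 CPM in each of the 3 JQ1 libraries, 309, 314 and 296 CPM in CAR, and 417, 412 and 438 CPM in DMSO. The groups did not overlap, and the largest step lay between the libraries with and without JQ1. MMP14 fell 3.33-fold in Combination (log2 -1.74 ± 0.04, edgeR adjusted p = 1.55e-20), 2.88-fold in JQ1 (log2 -1.52 ± 0.04, edgeR adjusted p = 1.31e-19) and 1.32-fold in CAR (log2 -0.40 ± 0.04, edgeR adjusted p = 6.44e-09), each against DMSO.

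MMP15 (MT2-MMP) went the other way, with 12.9, 13.6 and 12.9 CPM in Combination, 11.4, 11 and 10.7 CPM in JQ1, 4, 3.2 and 3.57 CPM in CAR, and 6.01, 7.42 and 5.99 CPM in DMSO. It was highest in Combination although CAR alone was the lowest group. MMP15 rose in Combination (log2 1.23 ± 0.10) and JQ1 (log2 0.89 ± 0.10) and fell in CAR (log2 -0.78 ± 0.12), and exceeded the sum of the separate log2 effects by 1.12 ± 0.15 (edgeR adjusted p = 6.38e-06). MMP17 (MT4-MMP), which is held by a glycolipid anchor, had 5.97, 6.53 and 5.02 CPM in Combination, 7.63, 6.59 and 8.19 CPM in JQ1, 3.24, 2.52 and 2.45 CPM in CAR, and 3.38, 2.49 and 2.89 CPM in DMSO. The Combination and JQ1 libraries lay above all CAR and DMSO libraries. MMP17 rose 2.3-fold in Combination and 2.76-fold in JQ1, while CAR minus DMSO was -0.03 with a 95% interval of -0.39 to 0.34.

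MMP16 (MT3-MMP) and MMP24 (MT5-MMP) were low, at group means up to 1.71 and 1.05 CPM. MMP16 averaged 0.542 ± 0.0864 CPM in Combination and 1.71 ± 0.29 CPM in DMSO and fell (log2 -1.44 ± 0.29, edgeR adjusted p = 0.000109). MMP24 fell in CAR (0.485 ± 0.0662 CPM, against 1.05 ± 0.233 CPM in DMSO, log2 -1.03 ± 0.29). Its fall in Combination (log2 -0.68, edgeR adjusted p = 0.0347) was lost without any 1 of 4 libraries, at edgeR adjusted p = 0.172 without DMSO replicate 2, 0.0568 without DMSO replicate 3, 0.0768 without Combination replicate 2 and 0.105 without Combination replicate 3. MMP24 shares 799 of its 4414 exon bases with MMP24OS on the opposite strand. The strand setting of the counting is not known, so how reads in these shared bases were assigned is not known either.

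The symbol rule also took in MMP24OS and the read-through transcript MMP24-AS1-EDEM2, neither of which carries the MMP domain. MMP24OS averaged 105 ± 2.33 CPM in Combination, 106 ± 2.48 CPM in JQ1, 74.9 ± 3.72 CPM in CAR and 99.7 ± 11 CPM in DMSO, and its small rises in Combination (log2 0.28) and JQ1 (log2 0.21) were not called under scaling by total counts. MMP24-AS1-EDEM2 had 6.08, 6.42 and 5.35 CPM in Combination, 5.63, 7.46 and 5.5 CPM in JQ1, 1.52, 1.15 and 0.639 CPM in CAR, and 0.949, 1.3 and 1.1 CPM in DMSO. The libraries with JQ1 all lay above those without it, with rises of 6.13-fold in Combination and 6.01-fold in JQ1 (log2 2.62 ± 0.21 and 2.59 ± 0.21). The gene EDEM2 itself was listed at only 3 to 13 counts, and how reads were divided between it and the read-through entry was not tested.

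Of the secreted MMPs 4 of 12 were tested. MMP1, the interstitial collagenase, had 4.49, 3.85 and 3.66 CPM in Combination, 5.31, 3.59 and 3.55 CPM in JQ1, 5.26, 4.46 and 5.06 CPM in CAR, and 4.91, 3.91 and 3.58 CPM in DMSO. The 4 groups overlapped. MMP1 was called in no comparison: its log2 differences from DMSO had 95% intervals of -0.18 to 0.50 in Combination, -0.21 to 0.47 in JQ1 and -0.01 to 0.65 in CAR. MMP19, a secreted MMP with basement membrane substrates, averaged 0.473 ± 0.365 CPM in Combination, 0.804 ± 0.174 CPM in JQ1, 3.47 ± 0.642 CPM in CAR and 4.37 ± 0.506 CPM in DMSO. It fell 7.97-fold in Combination (log2 -2.99 ± 0.29, or -3.77 without Combination replicate 3, the highest library of that group) and 4.99-fold in JQ1 (log2 -2.32 ± 0.26), each against DMSO.

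MMP8, the collagenase of neutrophils, was counted 7, 14 and 14 times in Combination, 11, 9 and 8 times in JQ1, 10, 10 and 15 times in CAR, and 44, 37 and 52 times in DMSO. Each treated group lay below DMSO and the treated groups overlapped. MMP8 fell in Combination (log2 -1.70 ± 0.25), JQ1 (log2 -2.09 ± 0.27) and CAR (log2 -1.90 ± 0.25), and its departure from additivity, 2.29 ± 0.44, was the largest among the called members. MMP11 (stromelysin-3) averaged 3.01 ± 0.652 CPM in Combination, 1.55 ± 0.184 CPM in CAR and 3.47 ± 0.566 CPM in DMSO. It fell in CAR (log2 -1.10 ± 0.19, edgeR adjusted p = 4.1e-05) but not detectably in Combination (log2 -0.01 ± 0.17, edgeR adjusted p = 0.977). MMP11 shares 218 exon bases with CHCHD10 on the opposite strand, which averaged 12.2 CPM in CAR and 8.64 CPM in DMSO.

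**Figure D3:**
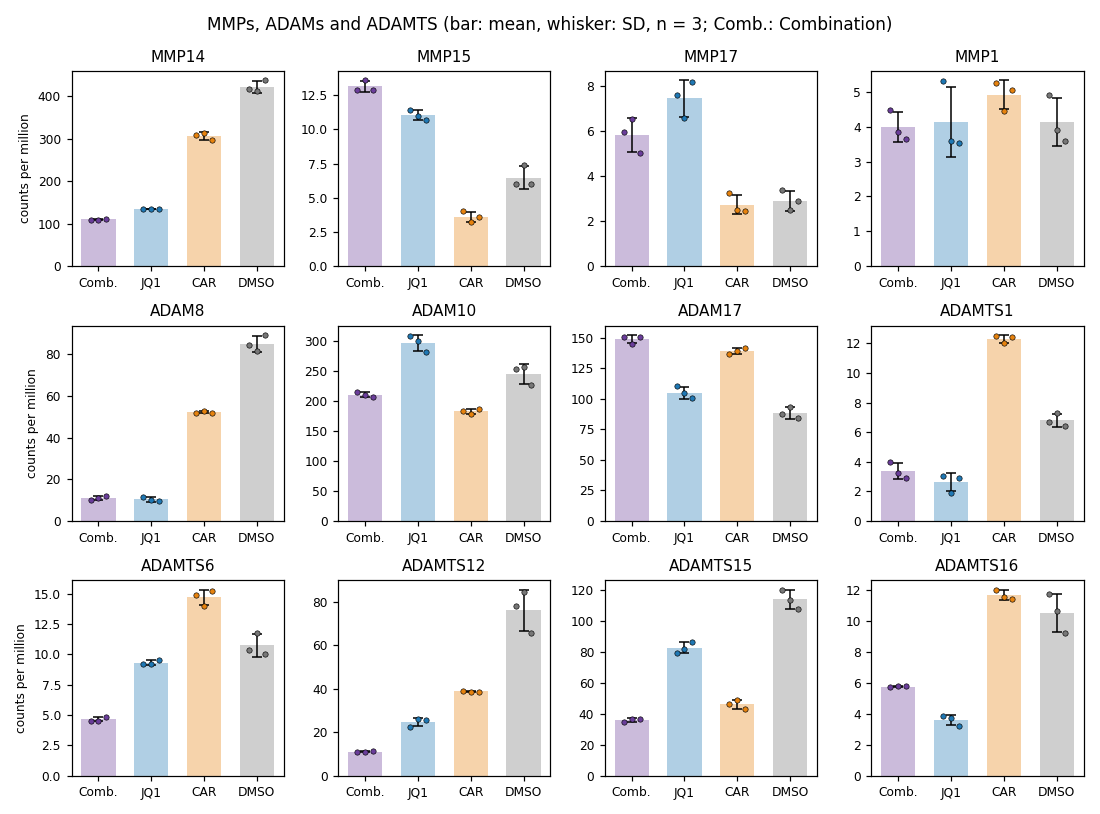
CPM of 12 proteases (MMP14, MMP15, MMP17, MMP1, ADAM8, ADAM10, ADAM17, ADAMTS1, ADAMTS6, ADAMTS12, ADAMTS15 and ADAMTS16) in each library (points), with the group mean (bar) and SD (whisker, n = 3). MMP14, ADAM8, ADAMTS12 and ADAMTS15 were highest in DMSO, MMP15 in Combination, and ADAMTS1 and ADAMTS6 in CAR, while the MMP1 groups overlapped.

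Among the inhibitors, TIMP2 and RECK were raised in JQ1 and Combination and lowered in CAR. TIMP2 (chr17:78852977-78925387, minus strand, GRCh38), which both inhibits MMPs and takes part in activation of the MMP2 precursor by MMP14, had 1114, 1103 and 1117 CPM in Combination, 1591, 1628 and 1651 CPM in JQ1, 429, 426 and 415 CPM in CAR, and 740.2, 742 and 716 CPM in DMSO. The groups were far apart relative to their spread. TIMP2 rose 2.41-fold in JQ1 (log2 1.27 ± 0.03, edgeR adjusted p = 4.22e-19) and 1.75-fold in Combination (log2 0.81 ± 0.03, edgeR adjusted p = 7.32e-16), and fell 1.66-fold in CAR (log2 -0.73 ± 0.03, edgeR adjusted p = 1.89e-13), each against DMSO. RECK (chr9:36036433-36124451, plus strand, GRCh38) had 25.6, 25.5 and 26.2 CPM in Combination, 48.4, 50.8 and 48.9 CPM in JQ1, 12.2, 10.7 and 12 CPM in CAR, and 18.7, 18.1 and 19.3 CPM in DMSO. Its groups stood in the same order as those of TIMP2, JQ1 highest and CAR lowest, without overlap. RECK rose 2.87-fold in JQ1 and 1.59-fold in Combination and fell 1.53-fold in CAR. The sum of 4 fibroblast markers stood in the same order of groups, at 37.2 to 38.1 CPM in Combination, 94.8 to 95.7 CPM in JQ1, 13.8 to 15.3 CPM in CAR and 31.9 to 34.5 CPM in DMSO. Nearly all of it was PDGFRB, while PDGFRA, DCN and LUM had at most 3 counts in any library, and the part of other cells in these results was not tested.

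TIMP1, TIMP3 and TIMP4 fell in all 3 treated groups. TIMP3, which stays bound to the matrix and also inhibits ADAM17, had 71.4, 71.4 and 75.3 CPM in Combination, 101, 95.8 and 104 CPM in JQ1, 61.3, 58.5 and 65.1 CPM in CAR, and 123, 121 and 119 CPM in DMSO. CAR was lowest and DMSO highest. TIMP3 fell by 0.53 on the log2 scale in Combination, 0.15 in JQ1 and 0.91 in CAR. TIMP1, a broad inhibitor of MMPs that also inhibits ADAM10, had 123, 119 and 126 CPM in Combination, 140.1, 136 and 143 CPM in JQ1, 134, 125 and 124 CPM in CAR, and 164, 161 and 196 CPM in DMSO. All 9 treated libraries lay below the 3 DMSO libraries, of which replicate 3 was the highest, and the falls were 0.30 in Combination, 0.20 in JQ1 and 0.38 in CAR on the log2 scale. TIMP4 averaged 3.26 ± 0.185 CPM in Combination, 4.31 ± 0.0475 CPM in JQ1, 3.11 ± 0.223 CPM in CAR and 6.09 ± 0.403 CPM in DMSO. Per kilobase, TIMP2 made up 66.4 to 67.5% of the 4 TIMPs in the Combination libraries, 71 to 72.2% in JQ1, 42.7 to 44% in CAR and 44.8 to 49.5% in DMSO.

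BSG (basigin, CD147), a membrane glycoprotein known to induce MMPs in neighbouring fibroblasts, had 813, 851 and 837 CPM in Combination, 914, 906 and 954 CPM in JQ1, 460.2, 452 and 452 CPM in CAR, and 492, 487 and 525 CPM in DMSO. The libraries with JQ1 were all far above those without it. BSG rose 1.92-fold in Combination (log2 0.94 ± 0.04, edgeR adjusted p = 3.07e-16) and 2.01-fold in JQ1 (log2 1.0 ± 0.04, edgeR adjusted p = 1.19e-16), and CAR minus DMSO was -0.07 with a 95% interval of -0.15 to 0.00.

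Ratios of protease to inhibitor within a library are given here per kilobase of exon and without a test. MMP14 fell in every treated group, while TIMP2 and RECK rose in JQ1 and Combination and fell in CAR, each against DMSO. MMP14 stood at 0.125 ± 0.00227 of TIMP2 in Combination, 0.105 ± 0.00172 in JQ1, 0.914 ± 0.0172 in CAR and 0.727 ± 0.0383 in DMSO (SD, n = 3 each). MMP14 over RECK was 5.77 ± 0.0612 in Combination, 3.7 ± 0.0832 in JQ1, 35.8 ± 3.5 in CAR and 30.6 ± 0.315 in DMSO. Both ratios were lower in every library with JQ1 than in any library without it.

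**Figure D4:**
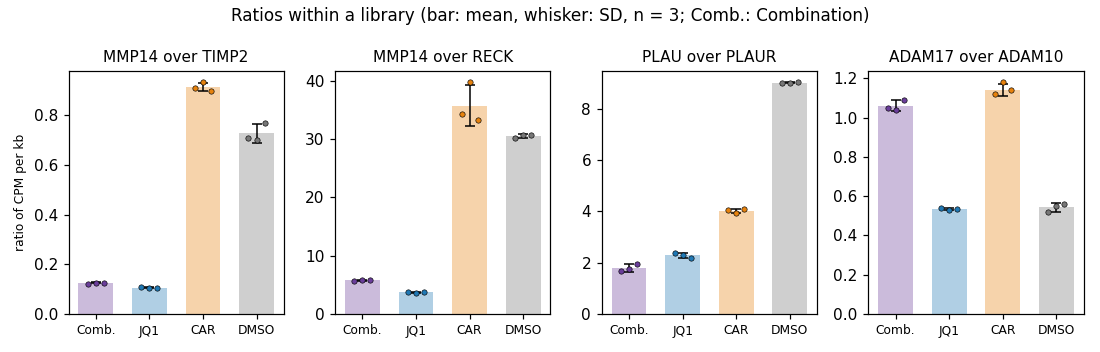
Ratios of CPM per kilobase within each library (points), with group mean (bar) and SD (whisker, n = 3), for MMP14 over TIMP2, MMP14 over RECK, PLAU over PLAUR and ADAM17 over ADAM10. Both MMP14 ratios were low in Combination and JQ1, and ADAM17 over ADAM10 was near 1.1 in Combination and CAR and near 0.54 in JQ1 and DMSO.

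ADAM8, an active ADAM reported in aggressive breast tumours, had the largest change of the ADAMs with at least 5 CPM in a group. It had 10.1, 10.8 and 12.1 CPM in Combination, 11.6, 9.96 and 9.51 CPM in JQ1, 52.1, 53 and 51.9 CPM in CAR, and 84.6, 81.8 and 89.4 CPM in DMSO. Combination and JQ1 overlapped, and both lay far below CAR, which lay below DMSO. ADAM8 fell 6.71-fold in Combination (log2 -2.75 ± 0.07, edgeR adjusted p = 1.16e-19), 7.55-fold in JQ1 (log2 -2.92 ± 0.07, edgeR adjusted p = 6.49e-20) and 1.56-fold in CAR (log2 -0.64 ± 0.05, edgeR adjusted p = 2.5e-09). Combination minus JQ1 was 0.17 with a 95% interval of -0.02 to 0.36.

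The 2 main shedding enzymes of the family differed. ADAM17, which releases TNF and ligands of the EGF receptor, had 151, 145 and 151 CPM in Combination, 110.2, 105 and 100.4 CPM in JQ1, 137, 139.6 and 142 CPM in CAR, and 87.4, 93.6 and 84.6 CPM in DMSO. It rose in every treated group, by 0.96 ± 0.04 in Combination, 0.37 ± 0.05 in JQ1 and 0.72 ± 0.04 in CAR on the log2 scale, and no groups overlapped. ADAM17 shares 1323 exon bases with IAH1 on the opposite strand, which averaged 39.2 to 54.1 CPM and fell in Combination (log2 -0.26) and CAR (log2 -0.28). ADAM10, which cuts Notch and E-cadherin, had 215, 209.5 and 207 CPM in Combination, 309, 299.7 and 282 CPM in JQ1, 184, 178 and 187 CPM in CAR, and 253, 257 and 227 CPM in DMSO. JQ1 was the highest group and CAR the lowest. ADAM10 rose in JQ1 (log2 0.39 ± 0.05) and fell in CAR (log2 -0.36 ± 0.05). In Combination its TMM-scaled difference from DMSO was -0.02, with a 95% interval of -0.11 to 0.08, although its CPM was lower in every library. The ratio of ADAM17 to ADAM10 per kilobase was 1.06 ± 0.0281 in Combination, 0.533 ± 0.00524 in JQ1, 1.14 ± 0.0318 in CAR and 0.542 ± 0.0209 in DMSO. Its size rests on joined exon lengths of 10750 bases for ADAM17 and 16168 bases for ADAM10, whereas its change between groups does not.

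ADAM12, an ADAM linked to invasive breast cancer, had among the largest folds but few reads: 5, 4 and 2 counts in Combination, 2, 1 and 2 in JQ1, 68, 75 and 73 in CAR, and 43, 51 and 43 in DMSO. The Combination and JQ1 libraries were at or near the floor and the CAR libraries above all DMSO libraries. ADAM12 fell in Combination (log2 -3.38 ± 0.30) and JQ1 (log2 -4.54 ± 0.35) and rose in CAR (log2 0.67 ± 0.16). ADAM19, a protease that can shed neuregulin, averaged 18.4 ± 0.358 CPM in Combination, 18.6 ± 1.71 CPM in JQ1, 35.1 ± 0.539 CPM in CAR and 38.5 ± 2.09 CPM in DMSO, and fell in Combination (log2 -0.86) and JQ1 (log2 -0.93). ADAM22, which lacks protease activity and binds LGI1, averaged 9.69 ± 0.699 CPM in Combination, 16 ± 1.1 CPM in JQ1, 9.06 ± 0.446 CPM in CAR and 18.9 ± 2.96 CPM in DMSO, and fell in Combination (log2 -0.76) and CAR (log2 -1.0). ADAM11, also without protease activity, rose in Combination (3.42 ± 0.0441 CPM, against 1.66 ± 0.115 CPM in DMSO, log2 1.25 ± 0.17). ADAM15, a disintegrin that can bind integrins, rose most in JQ1 (277 ± 1.54 CPM, against 207 ± 5.18 CPM in DMSO, log2 0.54 ± 0.04). ADAM28 fell in Combination (8 counts in all, against 61 in DMSO, log2 -2.66 ± 0.50). ADAM9, a further shedding enzyme, averaged 299 ± 4.43 CPM in Combination, 293 ± 9.55 CPM in JQ1, 305 ± 10.2 CPM in CAR and 325 ± 13.9 CPM in DMSO. It was called against DMSO in none of the treated groups, and the 95% interval of its log2 difference was 0.00 to 0.17 in Combination, -0.12 to 0.05 in JQ1 and -0.11 to 0.05 in CAR. In Combination the TMM-scaled difference of ADAM9 was 0.08, although its CPM was lower in every Combination library than in any DMSO library.

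ADAMTS15 and ADAMTS12 fell in all 3 treated groups. ADAMTS15, which cuts versican, had 34.7, 36.9 and 36.6 CPM in Combination, 79.7, 82 and 86.6 CPM in JQ1, 46.7, 48.9 and 43.2 CPM in CAR, and 120.4, 114 and 108 CPM in DMSO. It fell 2.74-fold in Combination (log2 -1.45 ± 0.06, edgeR adjusted p = 3.03e-16), 1.27-fold in JQ1 and 2.36-fold in CAR, so that here CAR gave the larger single change. ADAMTS12, which cuts cartilage oligomeric matrix protein, had 10.8, 11.1 and 11.2 CPM in Combination, 22.6, 26.3 and 25.6 CPM in JQ1, 39, 38.7 and 38.7 CPM in CAR, and 78.2, 84.3 and 65.7 CPM in DMSO. The 4 groups of ADAMTS12 did not overlap, and its falls were 5.97-fold in Combination (log2 -2.58 ± 0.09, edgeR adjusted p = 2.74e-16), 2.82-fold in JQ1 and 1.87-fold in CAR. Its departure from additivity was -0.18 ± 0.12 and was not called.

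ADAMTS1 and ADAMTS6 rose in CAR and fell in Combination. ADAMTS1, an aggrecan- and versican-cutting enzyme, had 3.95, 3.26 and 2.89 CPM in Combination, 3.05, 1.9 and 2.92 CPM in JQ1, 12.5, 12 and 12.4 CPM in CAR, and 6.65, 7.3 and 6.41 CPM in DMSO. It rose in CAR (log2 0.92 ± 0.11, edgeR adjusted p = 4.45e-07) and fell in JQ1 (log2 -1.25 ± 0.15, edgeR adjusted p = 7.74e-08) and Combination (log2 -0.80 ± 0.14, edgeR adjusted p = 1.83e-05), each against DMSO. Its higher level in Combination than in JQ1 (log2 0.45, edgeR adjusted p = 0.0316) was not called without JQ1 replicate 2 (0.26, edgeR adjusted p = 0.212), Combination replicate 1 (0.32, edgeR adjusted p = 0.169) or Combination replicate 2 (0.46, edgeR adjusted p = 0.0558). ADAMTS6, known for binding fibrillin matrix, had 4.55, 4.55 and 4.86 CPM in Combination, 9.21, 9.2 and 9.57 CPM in JQ1, 14.9, 14 and 15.2 CPM in CAR, and 10.4, 11.8 and 10.0 CPM in DMSO. It rose in CAR (log2 0.52 ± 0.08), was not called in JQ1 (log2 -0.08 ± 0.09) and fell in Combination (log2 -1.0 ± 0.10). ADAMTS16 had 5.7, 5.78 and 5.79 CPM in Combination, 3.84, 3.76 and 3.21 CPM in JQ1, 12, 11.5 and 11.4 CPM in CAR, and 11.7, 10.6 and 9.2 CPM in DMSO. It fell in JQ1 (log2 -1.42 ± 0.11) and Combination (log2 -0.66 ± 0.10), and its CAR and DMSO libraries overlapped.

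Of the other 6 tested ADAMTS genes, 5 fell in Combination and 1 rose. ADAMTS3, a procollagen peptidase, fell in Combination (6.5 ± 0.621 CPM, against 13.5 ± 0.654 CPM in DMSO, log2 -0.85 ± 0.10). ADAMTS7 was the 1 member of its family that rose in JQ1 and Combination, to 3.53 ± 0.559 CPM in Combination and 3.18 ± 0.259 CPM in JQ1, against 1.33 ± 0.22 CPM in DMSO. ADAMTS9, a versicanase, fell in Combination (log2 -1.61 ± 0.26) and JQ1 (log2 -1.62 ± 0.26). ADAMTS14, a procollagen peptidase like ADAMTS3, fell in Combination (9 counts in all, against 80 in DMSO, log2 -2.89 ± 0.41), and ADAMTS13, which cuts von Willebrand factor, fell in Combination too (10 counts, against 40, log2 -1.75 ± 0.50). ADAMTS17 fell in JQ1 (0.403 ± 0.0488 CPM, against 1.02 ± 0.208 CPM in DMSO, log2 -1.22 ± 0.35). Its fall in Combination (log2 -0.80, edgeR adjusted p = 0.0294) was lost without DMSO replicate 3 (edgeR adjusted p = 0.132), Combination replicate 2 (edgeR adjusted p = 0.0935) or Combination replicate 3 (edgeR adjusted p = 0.144).

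The promoters of 38 members, 28 of them tested, were found in the RefSeq promoter table (GRCh38.p14, windows of 300 bases around the annotated start). The windows of PLAUR and ADAMTS12 are shown because they held the only AP-1 matches among the 28, and those of MMP14 and RECK, a protease and its inhibitor that moved apart in JQ1, for comparison. They were chosen after the values and matches were seen, and that of PLAU is not shown. Capitals mark every match of AP-1 (TGANTCA), the core of the antioxidant response element (TGACNNNGC), the TATA box (TATAAA) and the GC box (GGGCGG), searched on both strands. PLAUR rose in CAR and fell in JQ1, ADAMTS12 and MMP14 fell in every treated group, and RECK rose in JQ1. The windows are chr19:43670120-43670419 (minus strand) for PLAUR, chr5:33891941-33892240 (minus) for ADAMTS12, chr14:22836335-22836634 (plus) for MMP14 and chr9:36036663-36036962 (plus) for RECK, each written 5′ to 3′ on the gene's strand.
PLAUR: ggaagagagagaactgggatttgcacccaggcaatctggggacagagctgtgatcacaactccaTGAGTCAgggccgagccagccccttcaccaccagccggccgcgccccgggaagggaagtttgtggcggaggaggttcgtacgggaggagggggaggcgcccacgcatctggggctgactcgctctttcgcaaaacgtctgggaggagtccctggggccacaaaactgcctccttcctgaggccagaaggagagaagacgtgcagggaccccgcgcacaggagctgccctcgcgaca
ADAMTS12: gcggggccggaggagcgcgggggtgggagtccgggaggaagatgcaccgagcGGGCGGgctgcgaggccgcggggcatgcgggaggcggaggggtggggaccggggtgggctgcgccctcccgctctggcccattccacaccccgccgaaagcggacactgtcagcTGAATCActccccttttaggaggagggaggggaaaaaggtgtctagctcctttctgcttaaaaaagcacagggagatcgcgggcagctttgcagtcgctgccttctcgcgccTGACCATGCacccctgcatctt
MMP14: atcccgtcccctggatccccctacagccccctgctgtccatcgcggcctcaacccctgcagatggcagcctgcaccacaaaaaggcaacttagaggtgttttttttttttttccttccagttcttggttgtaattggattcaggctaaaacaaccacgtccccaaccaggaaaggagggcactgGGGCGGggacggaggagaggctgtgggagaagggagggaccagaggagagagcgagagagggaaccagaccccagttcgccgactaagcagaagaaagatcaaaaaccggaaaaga
RECK: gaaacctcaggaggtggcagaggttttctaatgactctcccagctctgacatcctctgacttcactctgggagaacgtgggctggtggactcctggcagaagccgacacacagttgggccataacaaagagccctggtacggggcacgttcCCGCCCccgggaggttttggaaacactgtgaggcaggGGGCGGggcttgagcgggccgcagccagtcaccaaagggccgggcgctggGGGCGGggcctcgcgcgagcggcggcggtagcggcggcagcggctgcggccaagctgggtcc
Of the 28 tested members with a window, PLAUR (186 bases before the start) and ADAMTS12 (84 bases before it) held an AP-1 match, against 7.76% of 27305 promoters. The antioxidant response element core was matched in ADAMTS12 and PLAU, against 13.6% of all promoters, the TATA box in MMP8 only, against 12%, and the GC box in 22 of the 28, against 44.6%. MMP24OS and MMP24-AS1-EDEM2 have the same window, which is counted for each of them in the 22 and the 28. The 28 are genes tested here, whereas the 27305 promoters include those of genes not tested. The shares are therefore not of like sets. All matches are of letters in short windows and not measured binding sites.

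Between genes, levels were set side by side as CPM per kilobase of exon, with all annotated exons of a gene joined into 1 length. This length can exceed that of the transcripts present, so the order of genes and the size of ratios between genes are approximate. In Combination the order began with BSG at 219.6 ± 5.01, TIMP2 at 197 ± 1.26 and TIMP1 at 79.5 ± 2.58, followed by ADAM9 at 43.2 ± 0.641, ADAM15 at 32.6 ± 1.02 and MMP14 at 24.6 ± 0.464 (SD, n = 3). In JQ1 it began with TIMP2 at 288 ± 5.33 and BSG at 244 ± 6.81, and in CAR with BSG at 119.8 ± 1.2 and TIMP1 at 83 ± 3.46. In DMSO, BSG at 132 ± 5.4, TIMP2 at 130.1 ± 2.59 and PLAU at 123 ± 2.6 led, before TIMP1 at 113 ± 12.4 and MMP14 at 94.5 ± 3.05. There, neither BSG and TIMP2 nor PLAU and TIMP1 differed by more than the larger SD of the pair. PLAU, at rank 3 of the members in DMSO, was at rank 11 in Combination with 11.3 ± 1.02 CPM per kilobase.

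Combination minus CAR and JQ1 minus DMSO both compare libraries with and without JQ1 and share no library. In Combination minus CAR, 15 members were higher and 17 lower (35.7% and 40.5% of the 42), against 42.4% and 43% of all genes tested, so both shares were near or below the background, and 76.2% were called in either direction, against 85.4% of all genes. Of the 12 members higher in JQ1 than in DMSO, 12 were higher in Combination than in CAR, which is 100% of the first list and 80% of the second, against 89.4% and 87.5% over all genes. Of the lower calls, 15 were shared, 71.4% of the 21 in JQ1 minus DMSO and 88.2% of the 17 in Combination minus CAR, against 89.2% and 87.5% over all genes. ADAMTS3, with its call in JQ1 minus DMSO lost as given above, is among the 15. TIMP3 alone was called in opposite directions, lower in JQ1 than in DMSO and higher in Combination than in CAR (log2 -0.15 and 0.38).

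CAR was likewise compared in 2 sets of libraries that share none, Combination minus JQ1 and CAR minus DMSO. In Combination minus JQ1, 6 members were higher and 16 lower (14.3% and 38.1%), against 26% and 25.9% of all genes tested, and 52.4% were called in either direction, against 51.9% of all genes. The lower calls shared with CAR minus DMSO were 11: PLAU, PLAT, MMP14, TIMP2, TIMP3, RECK, ST14, ADAM10, ADAM22, ADAMTS12 and ADAMTS15. ST14 was not called in Combination minus JQ1 (log2 -0.73, edgeR adjusted p = 0.0319) without JQ1 replicate 2 or 3 or Combination replicate 1 or 3 (edgeR adjusted p = 0.0674, 0.0905, 0.15 and 0.0633), nor with DESeq2 (adjusted p = 0.0783). The 11 were 68.8% of the 16 in Combination minus JQ1 and 50% of the 22 in CAR minus DMSO, against 57.3% and 49.3% over all genes. The shared higher calls were ADAM17 and ADAMTS1, 33.3% of 6 and 40% of 5, against 53.1% and 50.7% over all genes. ADAMTS1 was not called in Combination minus JQ1 without JQ1 replicate 2 or Combination replicate 1 or 2 (edgeR adjusted p = 0.212, 0.169 and 0.0558). PLAUR, ADAMTS6 and MMP15 were called in opposite directions, the first pair lower in Combination than in JQ1 but higher in CAR than in DMSO, and MMP15 the reverse. Without Combination replicate 1, Combination minus JQ1 had 5 members higher and 15 lower.

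In a test of the departure from additive log2 effects, 14 of 42 members were above additivity and 5 below, or 33.3% and 11.9%, against 20.1% and 18.2% of all genes tested. Called in either direction were 45.2% of members and 38.3% of all genes. The median departure was 0.17 among the members and 0.01 over all genes. All 4 TIMPs were above additivity, by 0.28 ± 0.08 for TIMP1, 0.27 ± 0.05 for TIMP2, 0.54 ± 0.07 for TIMP3 and 0.59 ± 0.18 for TIMP4, and so were PLAT, ADAM8, MMP15 and MMP8. Below it were ADAMTS6 (-1.43 ± 0.13), PLAUR, ADAMTS3 (-0.62 ± 0.14), ADAM15 (-0.28 ± 0.06) and RECK (-0.23 ± 0.09). Without Combination replicate 1 there were 12 members above and 5 below, and the calls of ADAM11, ADAM9 and RECK were among those lost (edgeR adjusted p = 0.0666, 0.0724 and 0.07). These 3 departures were near the threshold and were also lost without most other single libraries, at edgeR adjusted p of 0.0501 to 0.13 for ADAM11, 0.0724 to 0.126 for ADAM9 and 0.0509 to 0.117 for RECK.

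**Figure D5:**
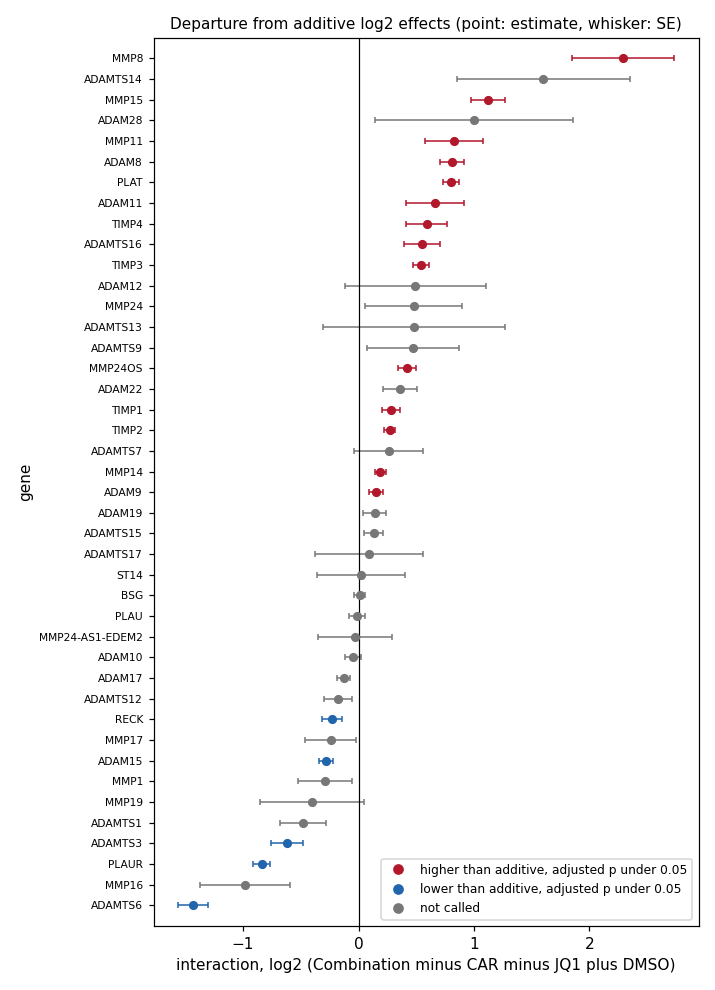
Departure of Combination from additive log2 effects (Combination minus CAR minus JQ1 plus DMSO) for the 42 tested members, as estimate (point) and SE (whisker), coloured by call. MMP8 (2.29) and MMP15 (1.12) were the highest among the called members and ADAMTS6 (-1.43) the lowest. MMP8 had 15 counts or fewer in every treated library.

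Genes that activate these proteases or act beside them were counted from further lists, none of which was tested as a set. For each list the background is the share of all genes tested. Against DMSO, 42.6% rose and 42.8% fell in Combination, 41.5% and 42.2% in JQ1, and 27.3% and 30.1% in CAR. Of 14 genes for activation and trafficking of metalloproteinases 12 were tested, and 7 rose and 4 fell in Combination, 6 rose and 4 fell in JQ1, and none rose and 7 fell in CAR, each against DMSO. Both inactive rhomboids that carry ADAM17 to the cell surface moved in JQ1, in opposite directions. RHBDF1 averaged 92.1 ± 4.25 CPM in Combination, 87.9 ± 4.62 CPM in JQ1, 42.5 ± 3.92 CPM in CAR and 63.3 ± 3.55 CPM in DMSO. RHBDF2 averaged 23.9 ± 2.05 CPM in Combination, 19.7 ± 0.342 CPM in JQ1, 50.1 ± 1.21 CPM in CAR and 58.5 ± 3.41 CPM in DMSO. RHBDF1 rose in Combination and JQ1 (log2 0.75 ± 0.06 and 0.59 ± 0.06), where RHBDF2 fell (log2 -1.08 ± 0.06 and -1.45 ± 0.06). FURIN, the convertase that activates membrane-type MMPs and ADAMs, rose in JQ1 (133 ± 5.55 CPM, against 100 ± 2.16 CPM in DMSO, log2 0.53 ± 0.04).

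Of 23 other pericellular and lysosomal proteases 17 were tested, and 9 rose and 7 fell in Combination, 7 rose and 8 fell in JQ1, and 4 rose and 10 fell in CAR. LGMN (legumain), a lysosomal cysteine protease, averaged 284 ± 11 CPM in Combination and 230.4 ± 7.88 CPM in JQ1, against 77.6 ± 3.33 CPM in DMSO, rises of 4.22-fold and 3.22-fold. CTSA rose 2.88-fold and 2.35-fold in the same groups. CTSL, the lysosomal cathepsin L, averaged 43.1 ± 2.32 CPM in Combination, 18.3 ± 1.01 CPM in JQ1, 64.6 ± 1.71 CPM in CAR and 27.1 ± 0.553 CPM in DMSO. It rose in CAR (log2 1.32 ± 0.05, edgeR adjusted p = 3.63e-14) and in Combination against JQ1 (log2 1.33 ± 0.06, edgeR adjusted p = 9.51e-14). CTSB fell in CAR (193 ± 1.9 CPM, against 272 ± 4 CPM in DMSO, log2 -0.43 ± 0.03) and CTSC rose there (162 ± 4.66 CPM, against 105 ± 4.82 CPM, log2 0.69 ± 0.04). Of 9 ADAMTS-like genes and ADAM relatives 4 were tested, with 2 higher and 2 lower in Combination and in JQ1 and 1 each way in CAR. ADAMTSL5 rose in Combination (24.4 ± 0.214 CPM, against 14.9 ± 0.314 CPM in DMSO, log2 0.93 ± 0.07), and ADAMTSL1 fell there (18 ± 0.193 CPM, against 32.9 ± 3.9 CPM, log2 -0.67 ± 0.08).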

How the data were processed

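RNA of 12 libraries was sequenced, 3 each of Combination, JQ1, CAR and DMSO, grouped by treatment label and title. The authors deposited 1 table of raw counts by gene symbol for each library. Trimmomatic, HISAT2, HTSeq and the build hg38 are named, with no versions, per the submitters' processing notes. Neither the annotation nor the strand setting is given in the sources used here. Reads of near-identical or overlapping genes may be split or dropped by such counting.

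Testing was done on these counts with edgeR 4.0.16 (R 4.3.3): filterByExpr by group (minimum count 10, minimum total 15), TMM factors, a robust quasi-likelihood fit with 1 coefficient per group over all 12 libraries (8 residual degrees of freedom), 6 contrasts, and Benjamini-Hochberg adjustment within a contrast over 12645 genes. The script was tested on simulated counts. No row without a gene name was present. CPM is the count divided by the library total. CPM per kilobase uses the union of all exons of a gene in GENCODE v29 on GRCh38, matched by symbol for 63 of 64 members. Intervals are at the 95% level, and floors (3 counts) cover counting error alone, because PCR duplicates are not separate molecules. Every replicate pair differed by more than sampling noise.

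Given per library were PLAU, PLAUR, PLAT, ST14, BSG, RECK, TIMP1, TIMP2, TIMP3, MMP1, MMP14, ADAM10 and ADAM17, plus members with a group mean of at least 5 CPM and a called log2 fold change of at least 1 in size; counts were also printed for the low ADAM12 and MMP8, chosen after their values were seen. From the lists of other genes, up to 3 with the smallest adjusted p per comparison could be named; 1 gene that this takes is not reported here, though it stayed in the tests and counts. The members and lists were chosen with earlier results of these data known. Alternatives were other scalings, filters, DESeq2 1.42.0, only the groups compared, a replicate block and leaving out each library. The labels do not say whether the replicate numbers of the titles pair the samples, and no pairing was detected. Same-numbered libraries of different groups had correlations of deviations of -0.045 to 0.0564 over 18 pairs, none over 0.1.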

Additional observations from a re-analysis of the deposited data

Results flagged for a closer look

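In 19 of the 42 tested members the effect of JQ1 differed with and without CAR, which is the same test as the departure from additive log2 effects, by edgeR's quasi-likelihood test at an adjusted p under 0.05; 38.3% of all genes tested did so. For MMP8 the departure was 2.29, with JQ1 effects of 0.20 with CAR and -2.09 without it, and for MMP15 it was 1.12 (2.01 with CAR and 0.89 without). MMP8 had 15 counts or fewer in every treated library, and the sum of its separate falls would bring it near the floor of 3 counts. ADAMTS6 had -1.43 (-1.52 and -0.08) and PLAUR -0.84 (-1.35 and -0.51). PLAT had 0.80 (-0.68 and -1.48), ADAM8 0.81 (-2.11 and -2.92), MMP11 0.83 (1.10 and 0.26), ADAMTS16 0.55 (-0.87 and -1.42) and ADAMTS3 -0.62 (-0.83 and -0.21). Of the inhibitors, TIMP3 had 0.54 (0.38 and -0.15), TIMP4 0.59 (0.21 and -0.38), TIMP1 0.28 (0.08 and -0.20), TIMP2 0.27 (1.54 and 1.27) and RECK -0.23 (1.29 and 1.52). MMP24OS had 0.42 (0.63 and 0.21), ADAM15 -0.28 (0.27 and 0.54), MMP14 0.19 (-1.34 and -1.52), ADAM11 0.66 (1.42 and 0.76) and ADAM9 0.15 (0.11 and -0.03). The calls of ADAM11, ADAM9 and RECK were each within 0.01 of the threshold and were lost under 14, 12 and 13 of the alternatives, including, for each, leaving out Combination replicate 1, at 0.65, 0.15 and -0.23 (edgeR adjusted p = 0.0666, 0.0724 and 0.07). The TIMP4 call was lost with DESeq2 (0.60, adjusted p = 0.0514).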

How the results depend on the processing

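The 12 counts of members called stayed within 1.5 times their value under every alternative run. Of 243 called single values, 18 lost their call in at least 1 of up to 20 alternatives, and 13 further values gained one. Scaling by total counts moved the median of all genes by -0.21 in Combination minus DMSO, -0.14 in Combination minus CAR and -0.12 in JQ1 minus DMSO. With it ADAM9 (Combination minus CAR) turned to -0.03, the 1 called value to change sign. Uncalled values also changed sign under it: MMP1 in Combination minus DMSO (-0.05) and minus JQ1 (-0.06), MMP24-AS1-EDEM2 in CAR minus DMSO (-0.01) and Combination minus JQ1 (-0.06), ST14 (-0.13) and TIMP1 (-0.06) in Combination minus CAR, and the departures from additivity of BSG (-0.01) and ST14 (-0.01). Upper-quartile scaling gave -0.02 for ST14 in Combination minus CAR and 0.01 for the PLAU departure, and ST14 in JQ1 minus DMSO was 0.00 without a filter and with only the groups compared. The cause was not tested.

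Leaving out 1 library at a time, values that changed sign, none of them called, ranged as follows. Against DMSO they were -0.17 to 0.09 for MMP17 and -0.24 to 0.33 for MMP24-AS1-EDEM2 in CAR, -0.09 to 0.27 for MMP1 and -0.15 to 0.19 for ST14 in JQ1, and -0.07 to 0.02 for ADAM10 in Combination. In Combination minus JQ1 they were -0.07 to 0.25 for MMP1 and -0.05 to 0.19 for MMP24-AS1-EDEM2, and in Combination minus CAR -0.21 to 0.22 for ST14. Departures from additivity ran from -0.08 to 0.01 for ADAM10, -0.02 to 0.04 for BSG, -0.30 to 0.27 for MMP24-AS1-EDEM2, -0.08 to 0.04 for PLAU and -0.21 to 0.22 for ST14.

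With the replicate number as a block, members called in CAR minus DMSO were 7 higher and 22 lower, in JQ1 minus DMSO 12 and 20, and 12 above and 5 below additivity; the other 6 counts did not move, and ST14 in JQ1 minus DMSO was 0.01. The interaction cannot be fitted with 2 groups only. At 17449715 or more counts per library, members below about 10 counts could not be tested.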
